A study of Mus musculus with 6 samples.

Results

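The genes described here encode 9 G protein-coupled receptors for metabolites, prostanoids and adenosine: *Hcar2*, *Ffar2*, *Gpr84*, *Gpr35*, *Ptger2*, *Ptger4*, *Adora2a*, *Adora2b* and *Adora3*. They were taken by gene name from a table of 55401 genes, and all 9 passed the filter on low values (mean of at least 1 FPKM, fragments scaled to transcript length and to all mapped fragments, over the 6 libraries), which left 9632 genes for testing. They were picked with the results of the same Ctrl against Lig contrast known. Counts of called members and their directions are therefore given as description, and nothing is read from them.

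Neutrophils were sorted as CD45+ CD11b+ Ly6G+ cells from the bone marrow (BM) of wild-type male C57BL/6 mice, 8 weeks old. The experiment asked how BM neutrophils differ after ligature-induced periodontitis, in which a silk thread tied around the second molars lets plaque collect and the gum become inflamed. In Lig mice the ligatures stayed for 14 days, while Ctrl mice were kept without ligatures for the same time. Each of the 3 Ctrl and 3 Lig libraries was made from a pool of 5 mice, so the spread between libraries is that between pools.

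Receptors of this group let a myeloid cell read the metabolic and inflammatory state of its surroundings. Receptors for ketone bodies, short-chain and medium-chain fatty acids and tryptophan metabolites mostly signal through inhibitory G proteins, which lower cyclic AMP. The prostaglandin E2 receptors EP2 and EP4 and the adenosine receptors encoded by *Adora2a* and *Adora2b* signal mainly through the stimulatory G protein, and the cyclic AMP they raise is known to dampen the oxidative burst and other neutrophil responses, while the A3 receptor couples to inhibitory G proteins. In the gene ontology annotation of the deposited table, the term for signalling that activates adenylate cyclase was attached to *Ptger2*, *Ptger4*, *Adora2a* and *Adora2b* and to no other of the 9.

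*Ptger2* and *Ptger4*, which encode the prostaglandin E2 receptors EP2 and EP4, both passed the test, in opposite directions. When 1 library was left out, the *Ptger2* call held in 4 of 6 fits and the *Ptger4* call in none. The 250 bases upstream of their starts are shown as description, and any link between sequence and direction was not tested. The windows come from RefSeq (GRCm38.p6), lie at chr14:44987861-44988110 on the plus strand for *Ptger2* and chr15:5244188-5244437 on the minus strand for *Ptger4*, and are written 5′ to 3′. Their RefSeq start bases lie 84 and 15 bases from the gene starts in the deposited table. Capitals mark the CCAAT box and the GC box GGGCGG, each on either strand.
Ptger2: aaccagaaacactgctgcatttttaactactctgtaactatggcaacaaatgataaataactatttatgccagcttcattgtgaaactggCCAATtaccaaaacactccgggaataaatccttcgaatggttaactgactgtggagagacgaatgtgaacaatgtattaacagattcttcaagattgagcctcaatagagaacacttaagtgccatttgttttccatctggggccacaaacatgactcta
Ptger4: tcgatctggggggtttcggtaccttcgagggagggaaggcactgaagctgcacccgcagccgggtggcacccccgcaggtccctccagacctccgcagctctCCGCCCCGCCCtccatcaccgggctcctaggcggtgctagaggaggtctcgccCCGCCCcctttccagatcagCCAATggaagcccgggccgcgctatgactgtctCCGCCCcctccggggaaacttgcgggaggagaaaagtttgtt

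The *Ptger2* window was 38.0% G or C and the *Ptger4* window 66.8%, with a median of 52.4% over the 32851 RefSeq windows. Of all windows, 8.47% were lower than that of *Ptger2* and 85.8% lower than that of *Ptger4*. Each held 1 CCAAT box, as did 33.8% of all windows, but the *Ptger4* window held 4 GC boxes, 2 of which share a base, and the *Ptger2* window held none, where 32.7% of all windows hold at least 1. The *Ptger2* window also held 2 matches to TTNNGNAA, a loose form of the C/EBP motif found in 36.8% of windows, 1 of which shares the last base of the CCAAT box, and the *Ptger4* window held none. The cyclic AMP response element TGACGTCA and its shorter form TGACG were in neither window, and were in 1.55% and 17.8% of all windows. On both strands, TGANTCA (AP-1), the NF-kB motif, the interferon response motif and TATAA had no match in either window, against 6.75%, 4.11%, 2.98% and 22.8% of all windows. A match describes letters in a window, not a bound site. Of the 9 genes, 7 matched a window by symbol, and *Hcar2* and *Adora2a* did not.

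Library totals were 50605309 to 61455112 on the scale of the deposited expected counts. Log2 expression correlated at r = 0.9771 to 0.9841 between libraries of a group and at 0.9707 to 0.9756 between groups. The label was checked against marker genes: *S100a8*, *S100a9* and *Ly6g* were abundant, and these 3 of 8 neutrophil and sort markers rose in Lig (edgeR quasi-likelihood test, adjusted over all 9632 genes tested). Markers of other cells were also read. The summed level of 10 erythroid markers was 1310 to 1760 FPKM in Ctrl and 393 to 505 FPKM in Lig, with 9 of the 10 called lower. That of 8 B cell markers was 94.7 to 120 FPKM in Ctrl and 47.5 to 53.4 FPKM in Lig, with 5 of the 8 called lower. Of all tested genes, 3.96% were called higher and 6.43% lower. Of 12 monocyte and macrophage markers, 8 were tested and 1, *F13a1*, was called lower. The groups lay apart with Lig below Ctrl for 7 of the 8, as they did for 24.9% of all tested genes. The median log2 fold change of the 8 was -0.75, with *C1qa* at 4.36 FPKM in Ctrl and 2.51 FPKM in Lig. Their summed levels, 164 to 170 FPKM in Ctrl and 148 to 173 FPKM in Lig, were mostly *Ly6c2* (111.06 to 136 FPKM), the only tested one that did not lie below. Summed levels of 9 eosinophil, basophil and mast cell markers were 76.3 to 95.7 FPKM in Ctrl and 37.2 to 98.3 FPKM in Lig, and none of the 6 tested was called. Summed levels of 8 T and NK cell markers were 6.88 to 7.97 FPKM in Ctrl and 5.42 to 5.74 FPKM in Lig. Of these, 2 were tested and 1, *Lck*, was called lower. For 6 dendritic cell markers the sums were 4.14 to 4.53 FPKM in Ctrl and 2.0 to 3.22 FPKM in Lig. For 5 platelet and megakaryocyte markers they were 4.06 to 5.43 FPKM in Ctrl and 2.29 to 4.07 FPKM in Lig. Each of these last lists had 1 tested gene, which was not called. No marker of these lists was at 0 in all libraries. The part of these cells in the receptor values was not tested.

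*Hcar2* was by far the most abundant of the 9 receptor genes. Its product, HCA2, is the receptor for the ketone body beta-hydroxybutyrate and for niacin. In Ctrl libraries the gene stood at 572.11, 600.61 and 578.59 FPKM, and in Lig libraries at 414.33, 397.62 and 401.84 FPKM. The groups lay far apart, with every Lig library below every Ctrl library, and the libraries within a group were close together. The mean fell from 584 ± 14.9 FPKM (SD, n = 3) to 405 ± 8.69 FPKM (n = 3), a log2 fold change of -0.45 ± 0.05 (SE, 95% interval -0.57 to -0.34, edgeR adjusted p = 0.00474), which is a drop of 27.0% in edgeR's fit. In bulk libraries, fewer cells that carry a transcript and less of it per cell cannot be told apart. The gene spans chr5:123863570-123865499 on the minus strand of GRCm38 with 1 listed transcript and had 43981 to 79528 deposited counts per library, so counting error is small here. *Hcar2* ranked in the 99.2 percentile of tested genes by mean FPKM and first of 55 tested G protein-coupled receptor genes. It kept its call when any 1 of the 6 libraries was left out (log2 fold change -0.48 to -0.42).

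Among the 9 receptor genes, 1 was called higher and 2 lower in Lig, where 3.96% of all tested genes were called higher and 6.43% lower (10.4% in either direction). limma on log2(FPKM + 1) called the same 3 (adjusted p = 0.00409 for *Hcar2*, 0.0319 for *Ptger2* and 0.0369 for *Ptger4*), where it called 1.71% of all tested genes higher and 7.26% lower (8.97% in either direction). The median log2 fold change of the 9 was -0.07, beside 0.00 over all tested genes. FPKM of the groups did not overlap for 5 of the 9, higher in Lig for *Ptger2* and lower for *Hcar2*, *Ptger4*, *Adora2b* and *Adora3*, where 34.8% of all tested genes did not overlap (9.9% higher and 24.9% lower). *Hcar2* alone made up 92.4% to 92.5% of the summed FPKM of the 9 in Ctrl and 89.5% to 90.7% in Lig. The sum of the other 8 was 46.7 to 49.6 FPKM in Ctrl and 40.8 to 48.6 FPKM in Lig, so these ranges overlapped.

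**Figure D1:**
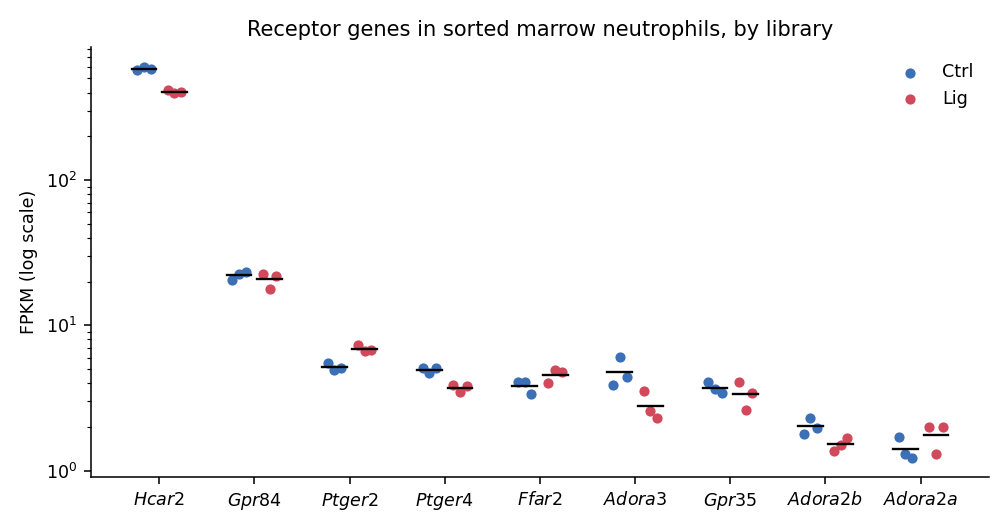
FPKM on a log scale for each of the 9 receptor genes, 1 point per library, with Ctrl in blue, Lig in red and a bar at the mean of 3 libraries. *Hcar2* sits at 405 to 584 FPKM on average and *Gpr84* near 20 FPKM, while the other 7 lie between about 1 and 8 FPKM.

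The other metabolite receptors did not pass the test. *Gpr84*, which encodes a receptor for medium-chain fatty acids, was second in abundance. It stood at 20.54, 22.58 and 23.29 FPKM in Ctrl and at 22.48, 17.79 and 21.8 FPKM in Lig. The groups overlapped, and the second Lig library was the lowest of the 6. The log2 fold change was -0.02 ± 0.11 (95% interval -0.28 to 0.23, edgeR adjusted p = 0.918), so changes within about those limits were not excluded with 3 pools a group. The sign turned without the filter on low values (0.02).

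*Ffar2* encodes FFA2, the receptor through which neutrophils sense acetate and other short-chain fatty acids. Levels were 4.08, 4.09 and 3.38 FPKM in Ctrl and 4.01, 4.91 and 4.76 FPKM in Lig. The Lig range lay mostly above the Ctrl range, but the first Lig library fell inside it. The log2 fold change was 0.32 ± 0.13 (95% interval 0.01 to 0.62) with an edgeR adjusted p of 0.162.

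*Gpr35*, a receptor proposed to bind kynurenic acid and a serotonin metabolite, stood at 4.09, 3.63 and 3.44 FPKM in Ctrl and 4.06, 2.61 and 3.4 FPKM in Lig. The groups overlapped, with the second Lig library lowest again. Its log2 fold change was -0.07 ± 0.17 (95% interval -0.46 to 0.32, edgeR adjusted p = 0.817), and the sign turned to 0.08 without that library.

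*Ptger2*, which encodes EP2, was the only one of the 9 called higher. It stood at 5.53, 4.95 and 5.1 FPKM in Ctrl and at 7.28, 6.63 and 6.74 FPKM in Lig. Every Lig library was above every Ctrl library. The mean went from 5.19 ± 0.301 to 6.88 ± 0.348 FPKM (SD, n = 3 each), a log2 fold change of 0.48 ± 0.08 (95% interval 0.31 to 0.66, edgeR adjusted p = 0.0125), or 39.7% in edgeR's fit. The call held in 4 of the 6 fits that left out 1 library and was lost without the third Ctrl library (adjusted p = 0.0616) or the third Lig library (adjusted p = 0.0512). The gene (chr14:44988195-45003820, plus strand) is covered along its whole length by the antisense transcript *Gm17173*, listed at 0.65 FPKM in Ctrl and 0.727 FPKM in Lig. Whether counting used strand is not given in the sources used here.

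*Ptger4*, which encodes EP4, moved the other way. Levels were 5.09, 4.72 and 5.06 FPKM in Ctrl and 3.91, 3.45 and 3.8 FPKM in Lig. The groups did not overlap. The mean fell from 4.96 ± 0.206 to 3.72 ± 0.24 FPKM (SD, n = 3 each), a log2 fold change of -0.34 ± 0.08 (95% interval -0.52 to -0.15, edgeR adjusted p = 0.039). This call is near the threshold: it was lost in all 6 fits that left out 1 library (adjusted p = 0.0643 to 0.139), though the log2 fold change stayed at -0.38 to -0.29, and without the filter on low values it was -0.30 with an adjusted p of 0.124. The gene (chr15:5206661-5244172, minus strand) shares 11676 bases with *Ttc33* on the other strand, which stood at 1.98 and 1.94 FPKM in the 2 groups (edgeR adjusted p = 0.908).

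The balance of the EP2 and EP4 transcripts therefore differed between the groups. *Ptger2* over *Ptger4* was 1.09, 1.05 and 1.01 in Ctrl and 1.86, 1.92 and 1.77 in Lig. The genes were level in every Ctrl library, and *Ptger2* led in every Lig library. As both genes were chosen from this contrast, the ratio carries no test. The summed FPKM of the pair was 10.6, 9.67 and 10.2 in Ctrl and 11.2, 10.1 and 10.5 in Lig, and these ranges overlapped.

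**Figure D2:**
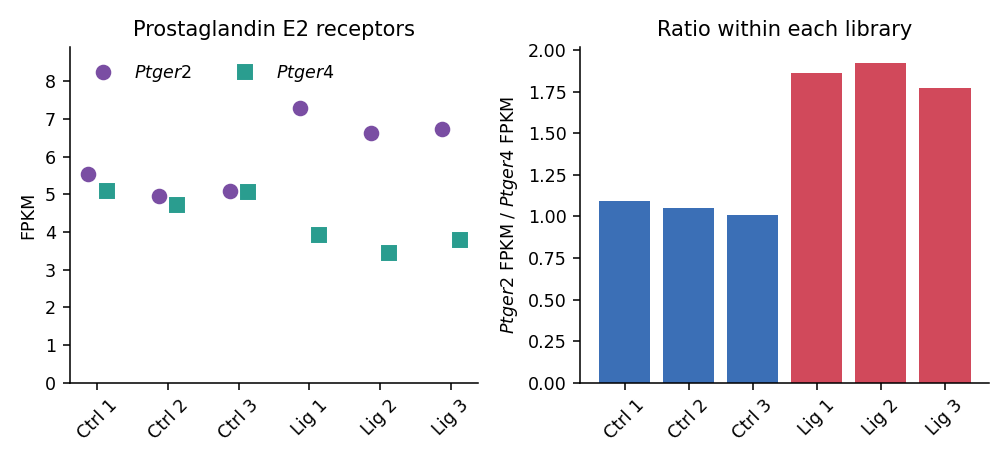
Left, FPKM of *Ptger2* (circles) and *Ptger4* (squares) in each of the 6 libraries; right, the ratio of *Ptger2* to *Ptger4* FPKM within each library, with Ctrl in blue and Lig in red. The ratio is 1.01 to 1.09 in Ctrl and 1.77 to 1.92 in Lig.

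None of the 3 adenosine receptor genes passed the test. *Adora3*, for the A3 receptor, had the largest fold change of the 9 and also the widest spread within groups. It stood at 3.89, 6.02 and 4.39 FPKM in Ctrl and at 3.54, 2.56 and 2.31 FPKM in Lig. All Lig libraries were below all Ctrl libraries, with a narrow gap between the highest Lig and the lowest Ctrl library. The means were 4.77 ± 1.11 and 2.8 ± 0.65 FPKM (SD, n = 3 each), and the log2 fold change was -0.69 ± 0.23 (95% interval -1.22 to -0.16, edgeR adjusted p = 0.0935). The call depended on the test, since DESeq2 gave an adjusted p of 0.0148 and limma on log2(TPM + 1) 0.0499. *Tmigd3* overlaps 38024 of the 38069 bases of *Adora3* on the same strand and was listed at 0.23 FPKM in Ctrl and 0.167 FPKM in Lig. A further entry of that name, sharing 4444 bases, was listed at 0.0267 FPKM in Ctrl and 0.04 FPKM in Lig. How reads were divided among these entries was not tested. In mice, *Adora3* is also known from mast cells and eosinophils. Among the eosinophil, basophil and mast cell markers, *Mcpt8* and *Prg2* were the most abundant. *Prg2* stood at 35.16, 37.14 and 34.32 FPKM in Ctrl and 13.89, 36.99 and 28.77 FPKM in Lig. *Mcpt8* stood at 44.72, 25.02 and 30.86 FPKM in Ctrl and 15.6, 44.04 and 34.42 FPKM in Lig. The *Adora3* log2 fold change was -0.90 to -0.47 over the fits that left out 1 library. It was -0.90 without the first Lig library and -0.47 without the second Ctrl library. The part of such cells in the *Adora3* level was not tested.

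*Adora2b*, for an adenosine receptor of low affinity, stood at 1.8, 2.32 and 1.98 FPKM in Ctrl and 1.37, 1.51 and 1.69 FPKM in Lig. The groups did not overlap but came close. The log2 fold change was -0.34 ± 0.18 (95% interval -0.76 to 0.08, edgeR adjusted p = 0.257), and -0.44 to -0.22 when 1 library was left out, with -0.22 without the second Ctrl library. Its counts were the lowest of the set, at 160 to 294 per library.

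*Adora2a*, for an adenosine receptor of high affinity, stood at 1.7, 1.3 and 1.23 FPKM in Ctrl and 1.99, 1.31 and 2.01 FPKM in Lig. The groups overlapped because the second Lig library was as low as the Ctrl libraries. Its log2 fold change was 0.40 ± 0.22 (95% interval -0.10 to 0.91, edgeR adjusted p = 0.268). *Adora2a* over *Adora2b* was 0.944, 0.56 and 0.621 in Ctrl and 1.45, 0.868 and 1.19 in Lig, which overlap.

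**Figure D3:**
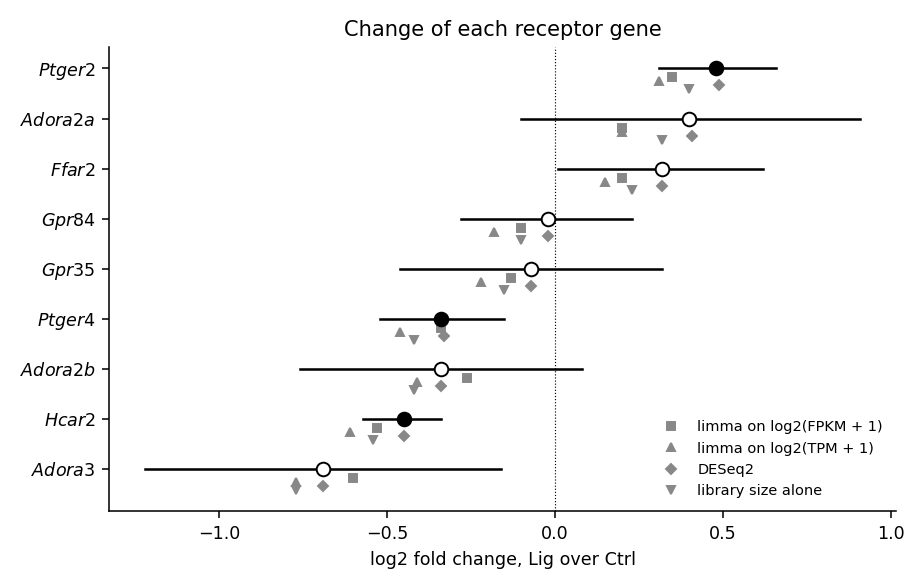
Log2 fold change of Lig over Ctrl for the 9 receptor genes from edgeR on the counts, with circles filled where the adjusted p is under 0.05, 95% intervals as lines, and the value under 4 other tests or scalings in grey. *Ptger2*, *Ptger4* and *Hcar2* are filled, and *Adora3* has the widest interval (-1.22 to -0.16).

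Per transcript length, the order of the mean FPKM was *Hcar2*, *Gpr84*, *Ptger2*, *Ptger4*, *Adora3*, *Ffar2*, *Gpr35*, *Adora2b*, *Adora2a* in Ctrl. *Hcar2* was 26.4-fold above *Gpr84*, and *Gpr84* 4.26-fold above *Ptger2*. From *Ptger2* down to *Gpr35* the library ranges of neighbours overlapped, so their order was not set beyond the spread of the libraries. In Lig the order was *Hcar2*, *Gpr84*, *Ptger2*, *Ffar2*, *Ptger4*, *Gpr35*, *Adora3*, *Adora2a*, *Adora2b*. There *Hcar2* was 19.6-fold above *Gpr84*, *Ptger2* and *Ffar2* were each clear of the next gene, and ranges overlapped from *Ptger4* to *Adora3* and between *Adora2a* and *Adora2b*.

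Close relatives of these genes were mostly near 0. *Hcar1*, the lactate receptor gene 11236 bases from *Hcar2* on chromosome 5, did not exceed 0.07 FPKM in any library. *Ffar3*, which like *Ffar2* encodes a short-chain fatty acid receptor, did not exceed 0.12 FPKM, and *Sucnr1* and *Oxgr1*, for succinate and 2-oxoglutarate, were listed at 0 throughout. *Ffar1*, for long-chain fatty acids, was at 0.26 to 0.40 FPKM in Ctrl and 0.06 to 0.10 FPKM in Lig, under the filter. Of 17 other metabolite and lipid receptors, 4 were tested and none called. The most abundant were *Gpr132*, at 32.2 and 30.3 FPKM in Ctrl and Lig, and *Cnr2*, at 17.2 and 15.7 FPKM.

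Of 7 other prostanoid receptors, 2 were tested and none called. *Ptgir*, for prostacyclin, stood at 8.19 and 8.6 FPKM (edgeR adjusted p = 0.338), above both EP receptor genes. *Ptger1*, for EP1, varied between 0.02 and 4.02 FPKM among libraries, and *Ptger3*, for EP3, was under the filter at 0.12 to 0.19 FPKM in Ctrl and 0.05 to 0.08 FPKM in Lig. Of 12 other adenosine and nucleotide receptors, 5 were tested and 2 were lower. *P2ry2*, for ATP and UTP, stood at 21.62, 28.00 and 28.45 FPKM in Ctrl and 16.12, 12.38 and 12.70 FPKM in Lig (log2 fold change -0.85 ± 0.15, edgeR adjusted p = 0.0177), with no overlap. *P2ry10* fell by 0.70 on the log2 scale (adjusted p = 0.022). *Adora1*, the other adenosine receptor gene, stayed under the filter at 0.43 to 0.75 FPKM.

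Downstream of the receptors, 14 of 16 G protein subunit genes passed the filter, and *Gnai1* was listed at 0 throughout. Of the 14 tested, 2 were higher, the inhibitory alpha subunit *Gnai3* (log2 fold change 0.26, edgeR adjusted p = 0.0341) and *Gng5* (0.25, adjusted p = 0.0427), and 1 was lower, *Gna13* (-0.22, adjusted p = 0.0438). The groups did not overlap for 8 of the 14, 4 in each direction, where 34.8% of all tested genes did not overlap (9.9% higher and 24.9% lower). *Gna11* was among the 8 (2.17 and 1.32 FPKM in Ctrl and Lig, edgeR adjusted p = 0.0639). *Gnai2*, the most abundant, was 448 FPKM in Ctrl and 458 FPKM in Lig and was not called. Among 16 tested genes of cyclic AMP synthesis, breakdown and action, 1 was called. *Pde4b*, the phosphodiesterase that degrades cyclic AMP in leukocytes, rose from 40.2 ± 2.86 to 48.2 ± 3.5 FPKM (log2 fold change 0.34, edgeR adjusted p = 0.0281), and *Prkar1a*, a regulatory subunit of protein kinase A, was at 99.8 and 111 FPKM (adjusted p = 0.0608).

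Of 6 tested receptor kinases and arrestins, *Arrb1* (log2 fold change 0.32, edgeR adjusted p = 0.026) and *Arrb2* (0.21, adjusted p = 0.0247) were higher and *Grk5* lower (-0.50, adjusted p = 0.0376). Arrestins uncouple and internalise activated receptors, and *Arrb2* was at 242 and 266 FPKM. *Grk2*, the abundant receptor kinase gene, was at 218 and 214 FPKM and not called. Among 9 tested genes known to be induced through cyclic AMP and CREB, 1 was higher and 3 were lower. *Rgs2*, which shortens G protein signals, rose from 57.5 to 79.5 FPKM (0.55, adjusted p = 0.014), while *Nr4a2* (-0.92, adjusted p = 0.0111), *Sik1* (-0.49, adjusted p = 0.0153) and *Dusp1* (-0.58, adjusted p = 0.0305) fell. These immediate-early genes also respond to other stimuli.

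Genes that supply or clear the ligands were mostly not called. Of 6 tested for adenosine, *Slc29a1*, the equilibrative nucleoside transporter gene, fell from 2.5 to 1.09 FPKM (log2 fold change -1.11, edgeR adjusted p = 0.0105), while *Entpd1* and *Nt5e*, whose products form adenosine from extracellular ATP, were at 21.9 and 22.4 FPKM and at 14.1 and 12.5 FPKM without a call. None of 9 tested prostanoid genes was called: *Ptgs1* was at 20.0 and 16.6 FPKM (adjusted p = 0.0744) and *Ptgs2* at 19.2 and 13.9 FPKM (0.388). Of 6 tested for ketone body, lactate and acetate handling, *Slc16a1*, for a monocarboxylate transporter, fell from 2.67 to 1.22 FPKM (-1.06, adjusted p = 0.00951). *Slc16a1* and *Slc29a1* are also expressed in erythroid cells, whose markers moved in the same direction, and the part of such cells was not tested.

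Across the related lists, 15 of 77 tested genes were called, 6 higher and 9 lower, where 10.4% of all tested genes were called (3.96% higher and 6.43% lower). The counts for single lists are description beside these same shares. Of the 6 higher, *Gnai3*, *Gng5*, *Pde4b*, *Arrb1* and *Arrb2* lost the call under library size alone and under limma on log2(FPKM + 1), and *Rgs2* kept it. Leaving out 1 library ended calls as well: of the 15, 2 held without the third Ctrl library, 3 without the third Lig library, and 6 to 9 without any 1 of the other 4. *Slc29a1* and *Slc16a1* held in all 6 of these fits, and *Gna13* and *Arrb2* in none.

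**Figure D4:**
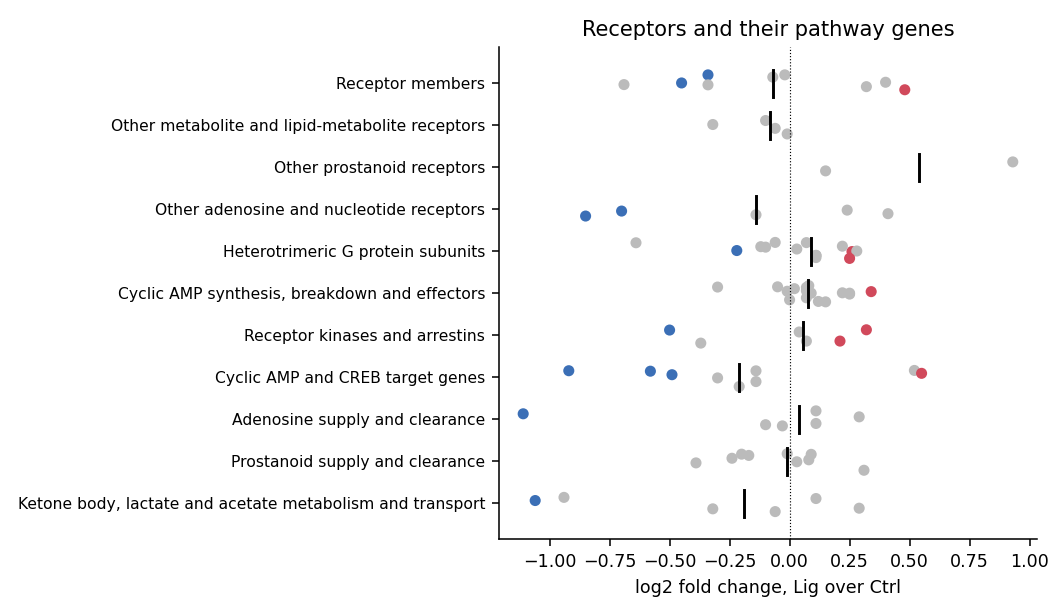
Log2 fold change of Lig over Ctrl for every tested gene of the receptors and 10 pathway lists, 1 point per gene, with red for called higher, blue for called lower, grey for not called and a bar at the list's median. Medians lie between -0.21 for cyclic AMP and CREB targets and 0.09 for G protein subunits, apart from 0.54 for the 2 tested prostanoid receptors.

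By gene ontology, 385 protein-coding genes had G protein-coupled receptor activity after olfactory, vomeronasal, trace amine-associated and taste receptors were set aside by symbol. Of these, 55 passed the filter, the 9 included. Of the 55, 8 were called higher and 9 lower, where 3.96% of all tested genes were called higher and 6.43% lower, and the median log2 fold change was -0.06. *Hcar2* had the highest mean FPKM, ahead of *Cxcr4* at 370 and 330 FPKM, the chemokine receptor that holds neutrophils in the marrow. *Gpr84* ranked 20 by mean FPKM, *Ptger2* 32, *Ptger4* 34 and *Ffar2* 36, and *Adora2a* was the lowest of the 9 at rank 50.

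**Figure D5:**
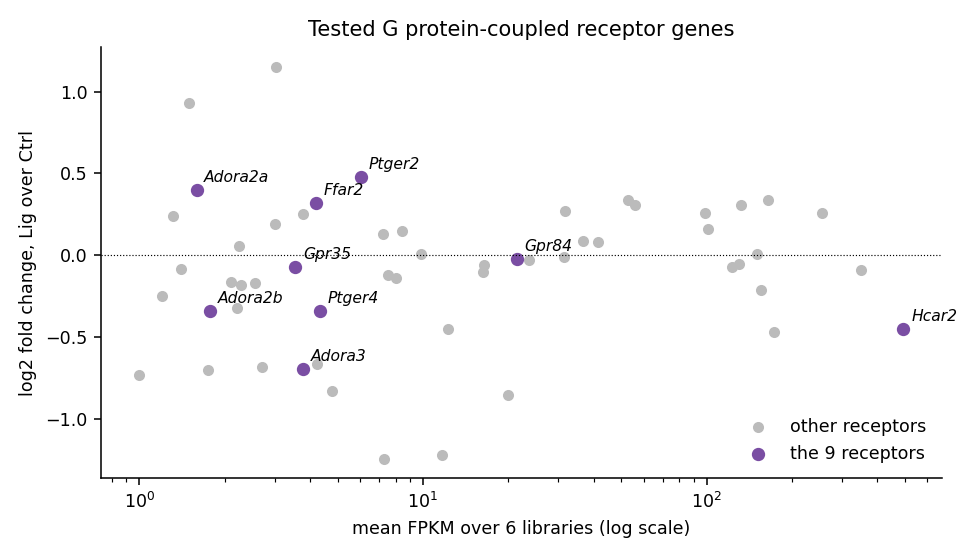
Mean FPKM over the 6 libraries (log scale) against log2 fold change of Lig over Ctrl for the 55 tested G protein-coupled receptor genes, with the 9 receptors in purple and the others in grey. *Hcar2* lies at the far right at 494 FPKM, *Gpr84* at 21.4 FPKM, and the other 7 at 1.59 to 6.04 FPKM.

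The genes whose profile over the 6 libraries was closest to a member were looked up among 4921 genes of at least 5 FPKM on average, by the root mean square difference of centred log2 CPM. For *Hcar2* these were *Nup153* (0.042), *Ctss* (0.042) and *Tnfrsf1b* (0.044), where the median over all candidates was 0.28. *Tnfrsf1b*, a tumour necrosis factor receptor gene, was at 88.5 and 61.9 FPKM. For *Ptger2* they were *Orm1* (0.022), *Icosl* (0.041) and *Gm37352* (0.047), where the median was 0.25. *Orm1*, for an acute-phase glycoprotein, was at 21.4 and 28.8 FPKM. The likeness describes these 6 libraries only.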

How the data were processed

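RNA-seq of sorted BM neutrophils was analysed in 3 Ctrl and 3 Lig libraries, grouped by their labels. The submitters' processing notes name cutadapt 1.9, FastQC and the GRCm38 build. Which aligner, counter, strand setting and annotation were used is not given in the sources used here. In 1 table, the authors deposited FPKM for 55401 genes, with no further scaling between libraries, and expected counts for the same genes. All deposited expected counts are whole, but 40.2% to 41.3% of values from 1 to 16 were multiples of 4, so they may not be counts of read pairs. Dividing them by 4 was tried as an alternative.

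Genes with a mean of at least 1 FPKM (9632) were tested with edgeR 4.0.16 in R 4.3.3 (TMM scaling, quasi-likelihood, no covariates, 2-sided, Benjamini-Hochberg adjustment over all tested genes, threshold 0.05). Ctrl libraries had TMM factors of 1.01 to 1.046 and Lig libraries of 0.967 to 0.976. The common dispersion was 0.0354. Standard errors were obtained by dividing the absolute log2 fold change by the root of its F statistic. Alternatives were limma 3.58.1 on log2(FPKM + 1), log2(FPKM + 0.1) and log2(TPM + 1), DESeq2 1.42.0, library size alone, other filters, a replicate block and each library left out. The code for the tests was tested on simulated data.

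All 9 receptors are named, and of each related gene list up to 4 called genes and the 2 most abundant, with the 3 nearest profiles of *Hcar2* and *Ptger2*. Other named genes were chosen after their values were seen. Members and lists were chosen with earlier results of these data known, so no set test and no adjustment over a list alone was made. Gene positions (GRCm38) were read from the deposited table.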

Additional observations from a re-analysis of the deposited data

How the results depend on the processing

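All-gene calls numbered 1000 (381 higher, 619 lower), 1741 with DESeq2, 604 with the filter raised to 5 FPKM and 278 to 694 without 1 library. Calls among the 9 receptors were 3, and 1 to 2 without 1 library. Of 77 tested genes in the related lists, 15 were called, 9 at the stricter filter and 3 to 9 without 1 library. With a replicate block the counts were 54, 0 and 1. In that fit *Hcar2* was at -0.45 (adjusted p = 0.0529), *Ptger2* at 0.48 (0.0605) and *Ptger4* at -0.34 (0.1). No label states that the replicate numbers pair the libraries. Deviations of same-numbered libraries correlated at -0.058, -0.079 and 0.012, and those of other pairs at -0.026 to 0.08. With 3 libraries a group, such values cannot exclude pairing. The share of higher calls was 38.1% in the reported fit and 15.5% of 1085 calls with library size alone. With limma, which changes test and scaling together, it was 19.1% of 864 on FPKM and 7.3% of 1329 on TPM (median of all genes -0.144). *Ptger4* was -0.30 without a filter and -0.38 to -0.29 without 1 library, and *Ptger2* 0.43 to 0.52. *Gpr84* had the opposite sign without a filter (0.02) and ranged from -0.09 to 0.08 without 1 library, and *Gpr35* from -0.24 to 0.08. *Adora3* passed with DESeq2 (-0.69) and on TPM (-0.77). The causes were not tested. Of the 15 called list genes, DESeq2 kept 15 and limma on FPKM 10, and none changed sign under any alternative. With 3 pools a group, changes of low-count receptors such as *Adora2b* are poorly bounded.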

Other observations

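Among receptors for other ligands, *Ccr7*, a lymphoid homing receptor gene, fell from 16.6 ± 1.34 to 6.78 ± 0.136 FPKM (SD, n = 3 each, log2 fold change -1.22, edgeR adjusted p = 0.00193). *Cxcr1* went from 1.94 ± 0.147 to 4.09 ± 0.836 FPKM (1.15, adjusted p = 0.0148), and *Fpr2*, for formyl peptides, from 149 ± 2.38 to 179 ± 10.2 FPKM (0.34, adjusted p = 0.0154). *C5ar1* stood at 354.69, 345.98 and 12.21 FPKM in Ctrl and at 13.49, 393.75 and 407 FPKM in Lig, so 1 library in each group lay far below the others. Whether those low values are the gene's expression or come from how reads were assigned to it was not tested. These genes were chosen after their values were seen.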
